A study of Mus musculus with 6 samples.

Results

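Autophagy delivers cytoplasmic material, including pieces of the endoplasmic reticulum (ER), to the lysosome, and is the other main route of ER clearance besides ER-associated degradation. The transcripts described here are 39 genes of this pathway, taken as a list of cargo receptors, core autophagy factors and ER-phagy receptors. Of these, 38 were measured among 19936 genes tested, each read from the brightest of the probe sets annotated to that gene alone, by the mean of the 6 arrays. Optn, which encodes the cargo receptor optineurin, had no such probe set and was not analysed here. The list is one of gene names, and its rule uses measured values only to pick the probe set of each gene. The genes were listed with earlier results of these data known.

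The data are 3 arrays of Sel1L knockout colon epithelium, genotype Sel1L-delta-IEC, and 3 of wild type colon epithelium, all from male C57BL/6J mice 8 weeks old. The knockout combines Sel1L flox/flox, with exon 6 floxed, and the Cre transgene B6.SJL-Tg(Vil-cre)997Gum/J, whose villin-1 promoter is active in intestinal epithelial cells, so that other cells of a preparation keep the gene. The lacZ-neo cassette of the targeted allele had been removed beforehand with a beta-actin FLPe deleter line, and the labels do not say whether the wild type mice carried floxed alleles or the Cre transgene. Sel1L is the adaptor of the Hrd1 ubiquitin ligase in ER-associated degradation.

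Autophagy starts with the ULK kinase complex, which activates a class III phosphatidylinositol 3-kinase (PI3 kinase) complex on a membrane close to the ER. Lipid is then moved into the growing phagophore, and small ubiquitin-like proteins of the ATG8 family are joined to its lipids by a conjugation system. Cargo receptors bind both the cargo and ATG8 proteins, and ER-phagy receptors do the same from within the ER membrane. In intestinal epithelium the pathway is known for its role in Paneth and goblet cells and for the risk variant of ATG16L1 in human Crohn disease. Much of the pathway is controlled on protein, so transcript levels do not measure autophagic flux.

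Of the 38 members, 1 rose in the knockout, Atg13, and none fell at an adjusted p under 0.05 from limma with Benjamini-Hochberg adjustment over all genes. Over all genes, 1.63% were called in either direction, 0.918% higher and 0.712% lower. At an unadjusted p under 0.05, 4 members were higher (Atg13, Sqstm1, Atg4b and Map1lc3a), against 7.72% of all genes, and 1 was lower (Tax1bp1), against 5.62%. In both directions together this was 13.2% of the members and 13.3% of all genes. The median change of the members was 0.037 on the log2 scale, beside 0.019 over all genes, and 25 of 38 members had a change above 0, beside 57.2% of all genes.

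**Figure D1:**
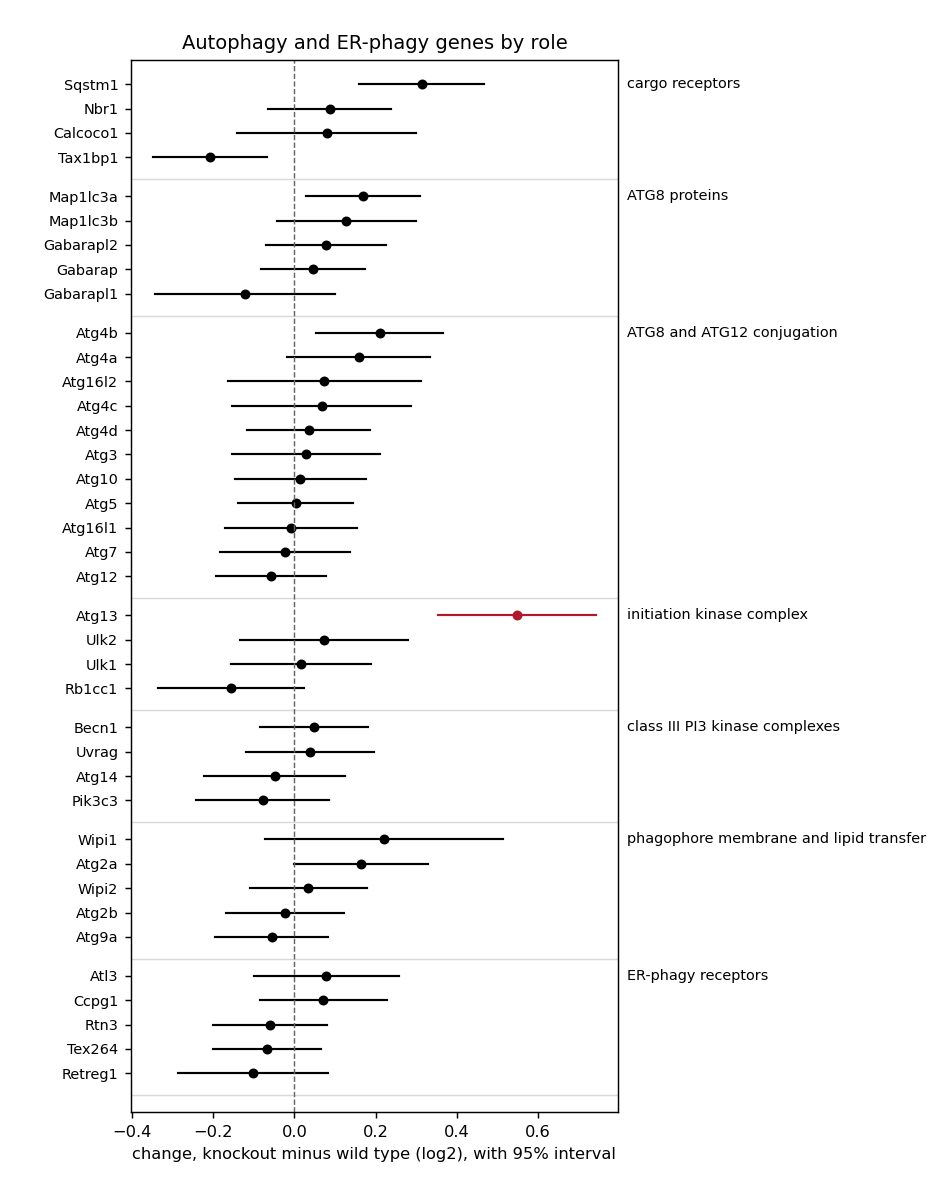
Log2 change of each of the 38 members, knockout minus wild type (points), with its 95% moderated interval from limma (lines), grouped by role, with 3 arrays in each genotype. Atg13 in red, at 0.55, is the only member called at an adjusted p under 0.05, and the other intervals that leave out 0 are those of Sqstm1, Atg4b, Map1lc3a and Tax1bp1.

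The mean deviation of the members from their means over all arrays was 0.028, 0.067 and -0.025 in knockout arrays 1, 2 and 3, against -0.032, -0.045 and 0.0074 in wild type arrays 1, 2 and 3. Knockout array 3 thus lay below wild type array 3, and the genotypes overlapped. The groups of single members did not overlap in 5 cases with the knockout higher, against 11.4% of all genes, and in 3 with the knockout lower, against 7.98%. The 95% interval of the change lay within 0.5 of 0 on the log2 scale, or 1.41-fold, for 36 of 38 members, beside 94.1% of all genes. The exceptions were Atg13 and Wipi1.

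**Figure D2:**
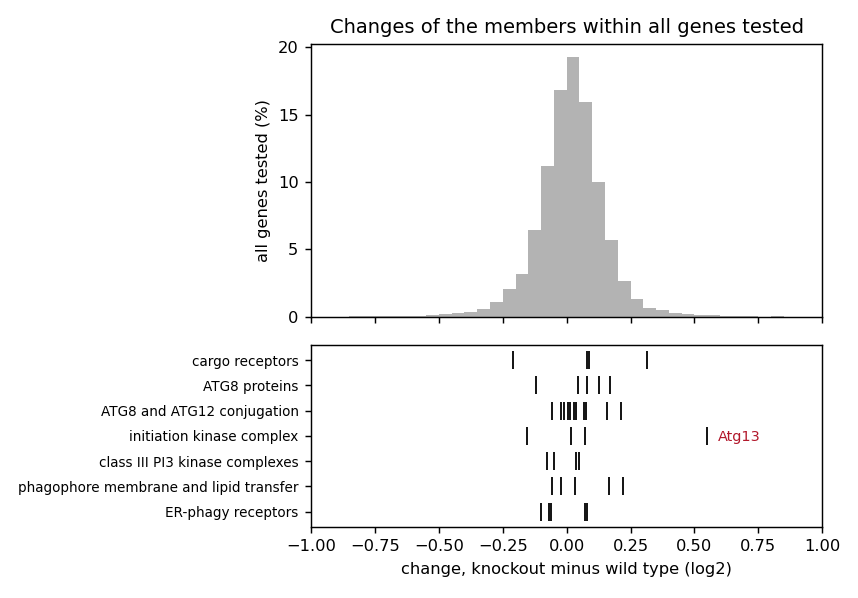
Upper panel, distribution of the change (knockout minus wild type, log2) over all 19936 genes tested, as a percentage of genes in bins of equal width, with 40 genes outside the plotted range. Lower panel, the members as ticks by role, where the tick for Atg13 at 0.55 stands apart from those of the other initiation genes.

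The ULK complex consists of a kinase, Ulk1 or Ulk2, the scaffold protein FIP200 encoded by Rb1cc1, ATG101, which binds ATG13, and ATG13, which links the kinase to FIP200. Atg13 read 10.02, 10.12 and 9.998 on the knockout arrays, against 9.53, 9.33 and 9.63 on the wild type arrays. All knockout arrays lay above all wild type arrays, and the gap of 0.37 between the groups was wider than the spread within either. Atg13 rose by 0.55 ± 0.085 (SE) on the log2 scale, or 1.46-fold, with a 95% interval of 0.35 to 0.74 (limma adjusted p = 0.020). With 1 array left out the change ran from 0.47 to 0.62 and the call held only without wild type array 3 (adjusted p = 0.021). The adjusted p was 0.084, 0.080 and 0.055 without knockout arrays 1, 2 and 3, and 0.073 and 0.055 without wild type arrays 1 and 2.

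The partners of Atg13 did not pass the test. Ulk1, the main initiating kinase, differed by 0.016 ± 0.076, and Ulk2 by 0.073 ± 0.091. Atg101, which is not on the list of members, differed by 0.068 ± 0.081 (adjusted p = 0.79). Rb1cc1 read 8.10, 8.29 and 8.13 in the knockout, against 8.40, 8.21 and 8.38 in wild type, a difference of -0.16 ± 0.079 (limma adjusted p = 0.45) with overlapping groups. In the RefSeq annotation of GRCm38.p6 the genes on either side of Atg13 are Harbi1 and Arhgap1. Harbi1 differed by 0.15 ± 0.062 (adjusted p = 0.34), in the direction of Atg13, with groups 0.057 apart. Arhgap1 differed by -0.036 ± 0.058 (adjusted p = 0.85), with overlapping groups, and neither neighbour was called. Both were looked up after the value of Atg13 was seen.

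Among cargo receptors, Sqstm1 encodes p62, which gathers ubiquitinated proteins and is itself degraded with them. Its levels were 11.12, 11.04 and 11.06 in the knockout, against 10.69, 10.86 and 10.72 in wild type. The groups were separated by 0.17, but the change of 0.31 ± 0.067 was not called (limma adjusted p = 0.068). It was called in 4 of 15 alternative analyses, with adjusted p between 0.013 and 0.23. The change was positive in each of them, from 0.28 to 0.37.

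Tax1bp1, a receptor of ubiquitinated cargo that also binds FIP200, had the lowest change of all members. It read 10.77, 10.75 and 10.64 in the knockout, against 10.94, 10.90 and 10.95 in wild type. The groups did not overlap, and the difference of -0.21 ± 0.061 was not called (limma adjusted p = 0.17, and 0.048 to 0.37 over the alternatives). The epithelial markers Epcam and Cdh1 each differed by -0.23 ± 0.058 (adjusted p = 0.12 for both), a size close to that of Tax1bp1, and their part in its value was not tested. The 11 epithelial markers as a list went both ways, with 5 above 0, a range of -0.36 to 0.28 and a median of -0.040. In bulk epithelium, fewer cells of a type and less RNA per cell cannot be told apart. Nbr1, a receptor related to p62, differed by 0.087 ± 0.066, and Calcoco1, a receptor for ER and Golgi membranes, by 0.080 ± 0.096.

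**Figure D3:**
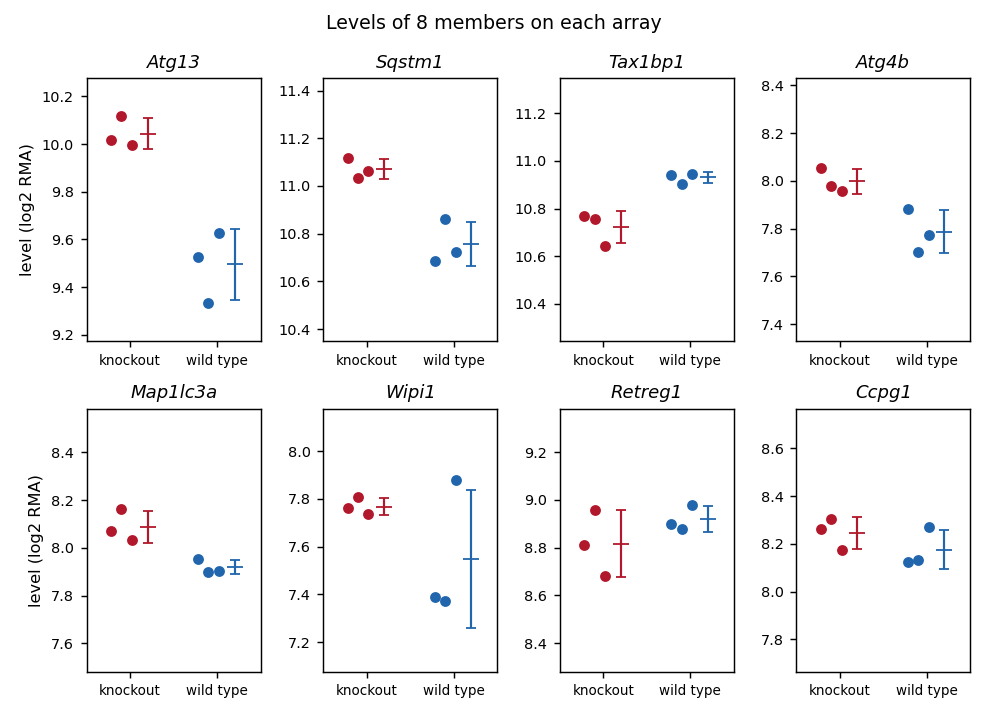
Log2 RMA levels of 8 members on each array, knockout in red on the left and wild type in blue on the right, with mean and SD of 3 arrays beside the points and a vertical axis of the same span in each panel. Atg13, Sqstm1, Tax1bp1, Atg4b and Map1lc3a show groups that do not overlap, whereas in Wipi1 wild type array 3 lies above all knockout arrays.

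The 5 ATG8 genes encode the proteins that coat the phagophore and bind receptors, and 4 of them had changes above 0 with none called. Map1lc3a, which encodes LC3A, read 8.07, 8.16 and 8.03 in the knockout, against 7.95, 7.90 and 7.90 in wild type. The groups did not overlap, and the difference of 0.17 ± 0.061 was not called (limma adjusted p = 0.28). Map1lc3b, which encodes the common autophagosome marker LC3B, read 10.53, 10.57 and 10.56 in the knockout, against 10.41, 10.31 and 10.56 in wild type. Its wild type array 3 reached the knockout level, and the difference was 0.13 ± 0.075 (adjusted p = 0.53).

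Gabarap, the brightest probe set of the group, read 12.37, 12.37 and 12.35 in the knockout, against 12.31, 12.36 and 12.29 in wild type, with overlapping groups. The other changes were those of Gabarap (0.046 ± 0.056), Gabarapl2 (0.078 ± 0.065) and Gabarapl1 (-0.12 ± 0.097), whose adjusted p values were 0.79, 0.68 and 0.66. Map1lc3b and Gabarapl2 had a second probe set. That of Map1lc3b read like the first, with a difference of 0.15. That of Gabarapl2 was dim, at 5.05 ± 0.32 in the knockout and 5.39 ± 0.097 in wild type (SD, n = 3 each), and differed by -0.34 ± 0.15, the opposite direction, without a call (limma adjusted p = 0.36 among all probe sets). The probe sets of Gabarapl2 thus disagree in sign. ATG8 genes resemble each other and may have processed copies elsewhere in the genome, and the probe sets were not mapped here.

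The conjugation system joins ATG8 proteins to lipid. ATG4 proteases trim ATG8 proteins, ATG7 activates them, ATG3 transfers them, and the ATG12-ATG5-ATG16L1 complex directs them to the membrane. None of its 11 members was called, with changes from -0.057 to 0.21 and a median of 0.028. Atg4b, the main ATG4 protease, read 8.06, 7.98 and 7.96 in the knockout, against 7.88, 7.70 and 7.77 in wild type. The groups did not overlap, and the difference was 0.21 ± 0.068 (limma adjusted p = 0.22).

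The related proteases gave smaller or less certain differences. Atg4a differed by 0.16 ± 0.077 (adjusted p = 0.43), with a second probe set at 0.15, and Atg4c by 0.067 ± 0.096. Atg4d read 9.17, 9.26 and 9.25 in the knockout, against 9.14, 9.14 and 9.29 in wild type, a difference of 0.035 ± 0.066 with overlapping groups. Atg7, Atg3, Atg10 and Atg5 differed by -0.024, 0.028, 0.014 and 0.0034, with SEs between 0.062 and 0.079. Atg12, Atg16l1 and Atg16l2 differed by -0.057, -0.0089 and 0.074. Atg16l2 was the member nearest to the dim end, with a mean of 6.67 ± 0.20 in the knockout and 6.59 ± 0.098 in wild type (SD, n = 3 each).

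The class III PI3 kinase makes the lipid signal that recruits later factors. Becn1, which encodes its regulatory subunit Beclin 1, read 9.17, 9.18 and 9.15 in the knockout, against 9.06, 9.13 and 9.16 in wild type, a difference of 0.049 ± 0.058 (limma adjusted p = 0.79). Pik3c3, the catalytic subunit, read 8.30, 8.11 and 8.21 in the knockout, against 8.27, 8.22 and 8.36 in wild type, a difference of -0.078 ± 0.072 (adjusted p = 0.72). Atg14, which directs the complex to autophagosome formation, differed by -0.049 ± 0.076, and Uvrag, its counterpart on endosomes, by 0.038 ± 0.069. All 4 intervals included 0 and lay between -0.24 and 0.20.

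WIPI proteins read that lipid signal, and ATG2 and ATG9 proteins move lipids into the phagophore. Atg2a, a lipid transfer protein, read 8.42, 8.64 and 8.48 in the knockout, against 8.37, 8.30 and 8.37 in wild type. The groups were 0.049 apart, and the difference of 0.16 ± 0.072 was not called (limma adjusted p = 0.38). Its paralog Atg2b differed by -0.023 ± 0.064, and by 0.042 with a second probe set.

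Wipi1 is described because of a single array, chosen after its values were seen. It read 7.76, 7.81 and 7.74 in the knockout, against 7.39, 7.37 and 7.88 in wild type, so that wild type array 3 lay above every knockout array. With all arrays the difference was 0.22 ± 0.13 (limma adjusted p = 0.52). Without wild type array 3 it was 0.39 and passed the test (adjusted p = 0.041), and with any other array left out it did not (adjusted p 0.62 to 0.81). Wipi2, its relative in ATG16L1 recruitment, differed by 0.034 ± 0.063. Atg9a, a lipid scramblase, read 8.91, 9.05 and 8.98 in the knockout, against 9.05, 9.02 and 9.04 in wild type, a difference of -0.056 ± 0.061 with overlapping groups.

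ER-phagy receptors are proteins of the ER membrane that bind ATG8 proteins, and none of the 5 was called. Retreg1, which encodes FAM134B, the receptor for ER sheets, read 8.81, 8.96 and 8.68 in the knockout, against 8.90, 8.88 and 8.98 in wild type, a difference of -0.10 ± 0.081 (limma adjusted p = 0.66). Ccpg1, a receptor that is induced by ER stress in human and mouse cells, read 8.26, 8.30 and 8.17 in the knockout, against 8.12, 8.13 and 8.27 in wild type. Its difference was 0.071 ± 0.069 (adjusted p = 0.73), with a 95% interval of -0.085 to 0.23.

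Tex264, a receptor with a broad share in ER-phagy, read 9.119, 9.154 and 9.055 in the knockout, against 9.180, 9.195 and 9.155 in wild type. The groups were 0.0011 apart, and the difference was -0.068 ± 0.058 (limma adjusted p = 0.69). Rtn3, whose long isoform is the receptor for ER tubules, read 11.56, 11.57 and 11.52 in the knockout, against 11.57, 11.69 and 11.57 in wild type. It differed by -0.061 ± 0.061 (adjusted p = 0.74), with groups 0.00049 apart. The probe set was not assigned to an Rtn3 isoform here. Atl3, a membrane-fusing GTPase of ER tubules, read 8.94, 8.78 and 8.78 in the knockout, against 8.66, 8.74 and 8.87 in wild type, with overlapping groups and a difference of 0.079 ± 0.078 (adjusted p = 0.74). The intervals of the 5 receptors lay between -0.29 and 0.26, and their median change was -0.061.

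The same arrays carried a rise of the stress factors that are known to act on autophagy genes. Atf4 rose by 0.54 ± 0.066 (limma adjusted p = 0.0099, and 0.052 without knockout array 1) and Ddit3, which encodes CHOP, by 0.79 ± 0.098 (adjusted p = 0.010). Hspa5 and Syvn1 rose by 0.85 and 0.77. In mouse fibroblasts under amino acid or ER stress, 12 of the members are known targets of ATF4, of CHOP or of both, namely Atg16l1, Map1lc3b, Atg12, Atg3, Becn1, Gabarapl2, Sqstm1, Nbr1, Atg7, Atg10, Gabarap and Atg5. None of the 12 was called, 9 had a change above 0, and 1, Sqstm1, was higher at an unadjusted p under 0.05. Over all genes 1.63% were called, 57.2% had a change above 0 and 7.72% were higher at that unadjusted p. Their median change was 0.037, the same as that of all members to 2 digits.

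Sel1l itself was measured by a probe set that was not mapped to exon 6 here. Sel1l stood at 8.70, 9.06 and 8.66 in the knockout, against 9.45, 9.67 and 9.54 in wild type, and fell by 0.74 ± 0.11 on the log2 scale (limma adjusted p = 0.018). The exact two-sided permutation p was 0.1, the smallest this design can give. All 11 epithelial markers lay above the median gene level of 6.67, with none called and mean levels of 12.06 to 12.14 in the knockout and 12.07 to 12.20 in wild type. Of 57 measured markers of immune, stromal, muscle, vascular and nerve cells, 6 lay above that level and 1 was called, the neutrophil gene Ly6g (-1.09 ± 0.15, adjusted p = 0.014). Ly6g read 10.57, 10.78 and 11.16 in the knockout, against 11.89, 12.15 and 11.75 in wild type. It was the 1 of 8 neutrophil markers above the median gene level, and which cells gave its signal was not tested. The other 7 of 8 neutrophil markers had changes above 0, up to 0.21, and none of them was called. The mean levels of all 57 markers of other cells were 5.52 to 5.63 in the knockout and 5.54 to 5.62 in wild type. Of the members, 37 of 38 lay above the median gene level.

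Further genes of autophagy and its control, 71 in 5 lists outside the members, gave 69 measured genes, of which 3 rose and 1 fell. These were Cdk5rap3, Ufm1, Trib3 and Bnip3. By list, none of 10 further initiation and PI3 kinase factors and none of 19 membrane and fusion factors was called. Of 13 measured genes of ER-phagy and UFMylation 2 rose, of 10 mitophagy and selective receptor genes 1 fell, and of 17 genes of the TFEB family, FOXO factors and mTORC1 control 1 rose. Over all these lists 11 genes were higher and 6 lower at an unadjusted p under 0.05, and the median change was 0.044. Over all genes these shares were 0.918% and 0.712% for adjusted calls higher and lower, and 7.72% and 5.62% for unadjusted ones.

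UFMylation attaches the ubiquitin-like protein UFM1 to ribosomes at the ER membrane and is needed for ER-phagy in human cells. Cdk5rap3, a component of its ligase complex, read 8.47, 8.42 and 8.43 in the knockout, against 7.96, 7.87 and 8.03 in wild type. The groups were clearly separate, and Cdk5rap3 rose by 0.48 ± 0.064, or 1.40-fold (limma adjusted p = 0.012). Its call ended without knockout array 1 (adjusted p = 0.061), wild type array 1 (0.054) or wild type array 2 (0.052), with a change of at least 0.44 each time.

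Ufm1, the modifier itself, read 10.32, 10.19 and 10.22 in the knockout, against 9.86, 9.97 and 9.90 in wild type, and rose by 0.33 ± 0.064 (limma adjusted p = 0.047). This call was near the threshold and ended with any array left out (adjusted p 0.095 to 0.18) and after median centring (0.072). A second Ufm1 probe set was dim, at 3.26 ± 0.10 in the knockout and 3.28 ± 0.10 in wild type (SD, n = 3 each), and did not differ by more than its error (-0.025 ± 0.079). Averaging both probe sets gave 0.15 (adjusted p = 0.31).

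Ufl1, the ligase, read 8.62, 8.71 and 8.45 in the knockout, against 8.24, 8.24 and 8.22 in wild type, a difference of 0.36 ± 0.076 (limma adjusted p = 0.065). Ufc1, the conjugating enzyme, read 9.15, 9.25 and 9.13 in the knockout, against 8.81, 8.74 and 9.04 in wild type, a difference of 0.31 ± 0.087 (adjusted p = 0.15, and 0.049 without wild type array 3). Neither was called in the analysis of the deposited values, and in both the genotypes did not overlap. Ufl1 was called after quantile normalization (adjusted p = 0.041), with an intensity trend (0.027), without the dimmest 25% or 50% of genes (0.042 and 0.024) and without knockout array 3 (0.039). Ufsp2, the protease that removes UFM1, differed by 0.24 ± 0.074 (adjusted p = 0.19). Ddrgk1, the membrane anchor of the ligase, differed in the opposite direction, by -0.075 ± 0.059 (adjusted p = 0.66). In 5 of these 6 genes every knockout array lay above every wild type array, as in 11.4% of all genes. The 6 were set apart from the rest of their list after the values were seen, so the count is a description. Among the other 7 genes of that list, Sec24c, a vesicle coat gene with a part in ER-phagy, read 10.65, 10.68 and 10.53 in the knockout, against 10.40, 10.37 and 10.26 in wild type, a difference of 0.28 ± 0.069 (adjusted p = 0.11). The further reticulon-type receptors Retreg2 and Retreg3 differed by 0.077 and -0.019, and Sec62, the receptor for recovery from ER stress, by 0.018.

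**Figure D4:**
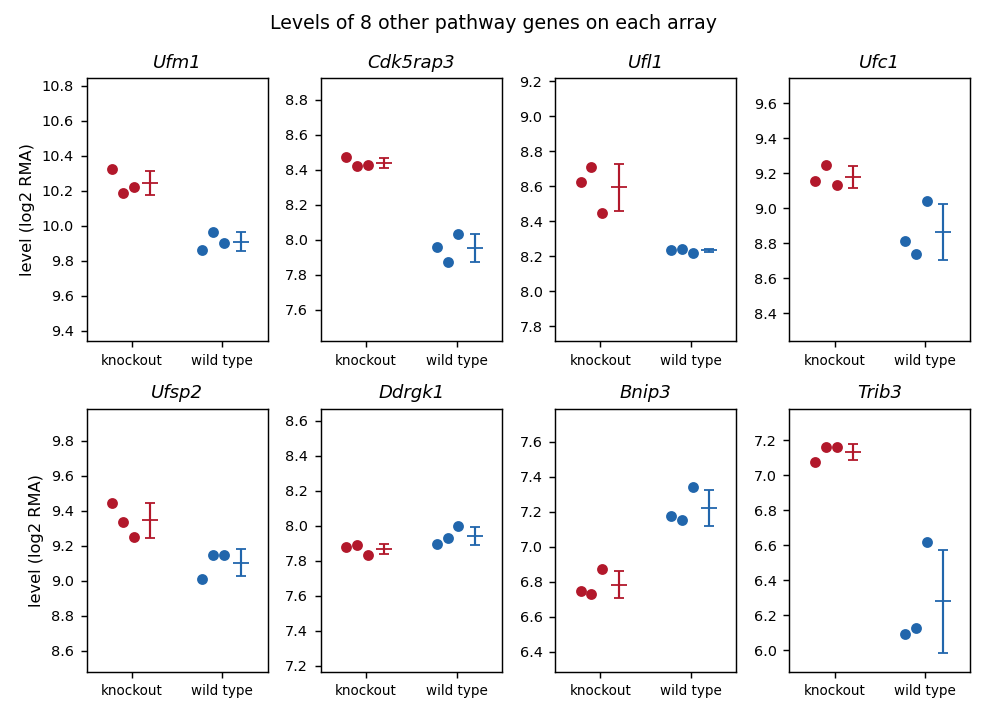
Log2 RMA levels of 6 UFMylation genes and of Bnip3 and Trib3 on each array, knockout in red on the left and wild type in blue on the right, with mean and SD of 3 arrays beside the points and the same span in each panel. Of the UFMylation genes, Ddrgk1 is the one with lower knockout levels, and Trib3 has its wild type array 3 nearer to the knockout.

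Bnip3, a mitophagy receptor of the outer mitochondrial membrane and a hypoxia-induced gene, read 6.75, 6.73 and 6.87 in the knockout, against 7.17, 7.15 and 7.34 in wild type. It fell by 0.44 ± 0.075 on the log2 scale (limma adjusted p = 0.028). Its dimmer probe set differed by -0.14 ± 0.095, and averaging them ended the call (change -0.29, adjusted p = 0.13). The call also ended without knockout arrays 1 or 2 (adjusted p = 0.12 and 0.11) or wild type arrays 1, 2 or 3 (0.090, 0.071 and 0.063). Its paralog Bnip3l had a difference of 0.079 ± 0.061 (adjusted p = 0.65).

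Trib3, a pseudokinase induced by ATF4 and CHOP, read 7.08, 7.16 and 7.16 in the knockout, against 6.09, 6.13 and 6.62 in wild type, and rose by 0.85 ± 0.13 (limma adjusted p = 0.019). It was called with wild type array 3 left out (adjusted p = 0.0016), and otherwise reached 0.079, 0.077, 0.070, 0.072 and 0.078 without knockout arrays 1, 2 and 3 and wild type arrays 1 and 2. Ddit4, an inhibitor of mTORC1 signalling, read 8.63, 8.91 and 8.68 in the knockout, against 8.36, 8.33 and 8.48 in wild type, a difference of 0.35 ± 0.087 (adjusted p = 0.11). Tfeb and Tfe3, the factors that drive lysosome and autophagy genes, differed by 0.0034 ± 0.060 and 0.12 ± 0.060 (adjusted p = 0.99 and 0.45), and Mtor differed by 0.016 ± 0.065. Of the 17 genes of their list, 4 were higher at an unadjusted limma p under 0.05 (Trib3, Ddit4, Sesn2 and Mitf). At that p 3 were lower (Fnip2, Foxo3 and Foxo1), and over all genes the shares were 7.72% higher and 5.62% lower. Foxo3 differed by -0.18 ± 0.067 and Foxo1 by -0.13 ± 0.057 (adjusted p = 0.28 and 0.37).

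The upstream sequences of Atg13 and Sqstm1, the members with the largest changes, and of Cdk5rap3 and Ufm1 are given because stress and starvation factors act on such windows in other genes. Each is the 250 bases before the gene's start in RefSeq (GRCm38.p6), read on the gene's own strand, which is the minus strand for all 4. Capitals mark a match to a searched motif. The windows are chr2:91710593-91710842 for Atg13, chr11:50210821-50211070 for Sqstm1, chr11:96916515-96916764 for the first of 2 starts of Cdk5rap3, and chr3:53863808-53864057 for Ufm1.
Atg13: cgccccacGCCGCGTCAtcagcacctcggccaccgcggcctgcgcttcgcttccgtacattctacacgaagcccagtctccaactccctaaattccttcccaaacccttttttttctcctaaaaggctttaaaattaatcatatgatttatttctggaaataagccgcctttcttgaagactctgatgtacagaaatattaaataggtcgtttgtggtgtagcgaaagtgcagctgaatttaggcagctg
Sqstm1: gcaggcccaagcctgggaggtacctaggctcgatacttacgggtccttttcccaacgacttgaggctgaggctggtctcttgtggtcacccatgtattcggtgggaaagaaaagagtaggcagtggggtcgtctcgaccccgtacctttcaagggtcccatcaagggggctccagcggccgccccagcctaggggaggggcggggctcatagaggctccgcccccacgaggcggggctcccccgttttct
Cdk5rap3: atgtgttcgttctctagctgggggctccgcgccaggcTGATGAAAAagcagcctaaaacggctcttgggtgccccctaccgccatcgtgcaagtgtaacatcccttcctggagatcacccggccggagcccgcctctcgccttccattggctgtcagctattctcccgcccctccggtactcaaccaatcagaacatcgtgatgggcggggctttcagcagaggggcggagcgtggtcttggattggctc
Ufm1: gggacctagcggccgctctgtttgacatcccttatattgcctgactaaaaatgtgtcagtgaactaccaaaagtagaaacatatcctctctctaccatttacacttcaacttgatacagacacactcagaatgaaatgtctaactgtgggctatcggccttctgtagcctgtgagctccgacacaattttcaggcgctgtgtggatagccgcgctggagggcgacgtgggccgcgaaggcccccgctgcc

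Both strands were searched for 6 motifs in 32851 such windows, in which 33 of the 39 members have at least 1 window. The motifs were TGATGNAAN (the ATF4-CHOP composite element, in 3.44% of all windows), the ER stress response element (0.113%), its second form (0.0304%) and TGACGTGG (bound by XBP1 and ATF6, 0.563%). CACGTG, the core of the lysosomal CLEAR element, was in 6.02% and TGACNNNGC, the antioxidant response element, in 10.2%. Matches to different motifs could overlap.

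No member window held any of the first 4 motifs. CACGTG was found at Atg3, Atg5, Atg7 and Retreg1, and TGACNNNGC at Atg13, Rtn3, Tax1bp1 and Ulk2. The match at Atg13 starts 242 bases before the gene's start, on the opposite strand, and reads GCCGCGTCA as printed. The first window of Cdk5rap3 holds TGATGAAAA, a match to the ATF4-CHOP composite element, 213 bases before that start. The window of the other start of Cdk5rap3 and those of Sqstm1 and Ufm1 hold none of the 6. These are matches of letters only.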

How the data were processed

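Levels are deposited log2 values, produced by RMA according to the authors (per the submitters' processing notes), from Affymetrix arrays hybridised with biotin-labelled cDNA per the labels' protocols. RMA subtracts background, equalises the arrays and combines the probes of each set. The software version and genome build were not given in the sources used here. That values are log2 follows from their range. The arrays had medians of 6.32 to 6.36 and were not normalized again.

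The platform annotation named, for 35556 probe sets, 1 gene in 21789, several in 1621 and none in 12146. Symbols were updated through RefSeq (GRCm38.p6) by gene identifier (21698) or accession (3), and 88 were kept. Genotypes were compared by limma 3.58.1 under R 4.3.3, with lmFit and eBayes and no term besides genotype. The p-values were two-sided, with Benjamini-Hochberg adjustment over 19936 genes. The code was also tested on simulated data with 200 changed genes. At an adjusted p under 0.05 it called 93% of changes of 0.5 and 100% of changes of 1. Of its calls there, 8.1% were false. Changes are knockout minus wild type with the moderated SE. Tables and figures were made with pandas 2.3.3 and matplotlib 3.10.9 under Python 3.11.15.

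The members and gene lists were chosen with earlier results of these data known. Members with an unadjusted p under 0.05, those with the smallest p and the highest level of each role, all ER-phagy receptors, Map1lc3b and Becn1 were named with full values, as were genes of the other lists that were called or had an unadjusted p under 0.01. Other names were chosen with their values in view. Whether arrays stand for separate mice is not said in the labels, so p-values reflect the variation among 6 arrays, which may be technical, and their number limits the precision. No batch could be tested. The alternatives were a replicate block, quantile normalization, median centring, leaving out dim genes, other eBayes priors, array weights, averaged probe sets and each array left out.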

Additional observations from a re-analysis of the deposited data

How the results depend on the processing

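The count of members called, 1 with all arrays, was 0 with the replicate block, 2 after quantile normalization or without the dimmest 25% or 50% of genes, and 3 with an intensity trend, and lay between 0 and 2 when 1 array was omitted. Sqstm1 was added in those 4 settings, Tax1bp1 with the trend, and Wipi1 without wild type array 3. Over all genes 325 were called, 614 with the trend and 598 without the dimmest 50% of genes, and 69 to 303 with an array left out. Members higher at an unadjusted p under 0.05 numbered 2 to 6, and members lower numbered 1 to 3, with an array left out, and 2 were lower after median centring. The median change of the members was between 0.013 and 0.057 with an array left out, and 0.015 after median centring. Sel1l changed by -0.87 to -0.67 with an array left out, and its adjusted p was 0.087, 0.060, 0.055 and 0.077 without knockout arrays 1 and 3 and wild type arrays 1 and 2. Of 31 further genes under 15 alternatives, none changed direction.

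With the replicate block 217 genes were called, and Atg13 had an adjusted p of 0.057 and Ufm1 of 0.12. Deviations of same-numbered arrays correlated at -0.10, 0.15 and 0.15. Knockout arrays 2 and 3 correlated best with the wild type array of their own number, and knockout array 1 with wild type array 2 (0.12). These values do not settle whether the numbers mark pairs, and the main fit did not take them as pairs. Median centring ended the call of Ufm1 (adjusted p = 0.072). Fits with an array left out have fewer arrays, and changes there were smaller for some lost calls and larger for others. Signal over background was not analysed here, so whether the dim second probe sets of Gabarapl2 and Ufm1 lie above it was not tested.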
